A study of Mus musculus with 50 samples.

Results

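The regions described here are m6A peaks that lay in the 3' UTR of a messenger RNA, within 50 nt of a consensus motif, on transcripts where no peak was found around the stop codon. They were taken from the authors' table of 32009 peaks by 3 criteria: the transcript part given as 3' UTR, an absolute distance to the motif of at most 50 nt, and no stop-codon peak on the same transcript. This gave 2336 peaks on 1636 transcripts, which was 42.1% of the 5550 3' UTR peaks and 7.30% of all peaks. The peak calls, the transcript part and the motif distance chose these regions, so their position and their nearness to the motif are not results. They are called stop-free 3' UTR peaks below, since the transcript has no called peak at its stop codon, which does not show that the mark is absent there.

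N6-methyladenosine (m6A) is a methylated form of adenosine found within messenger RNA. It is written by a nuclear complex whose catalytic subunit is METTL3, on adenosines within a short sequence motif, and it is known to be densest around stop codons and in the 3' UTR. Reader proteins bind the mark there: YTHDF2 is known for promoting decay of marked messages, and IGF2BP3 for stabilising messages it binds. A 3' UTR mark without a stop-codon mark is therefore a case in which the usual site of highest density carries no called peak.

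The m6A-seq part of the series held 12 of its 50 samples, in 4 groups of 3, all from mouse B cells kept overnight with LPS, a bacterial lipid-sugar that activates B cells. The 2 genotypes were AIDcre Mettl3-flox/+ and AIDcre Mettl3-flox/flox, and for each there was RNA captured by an anti-m6A antibody (IP) and the RNA before pull-down (Input). Both genotypes carry AIDcre, a recombinase under control of the gene for AID, an enzyme that B cells switch on when activated, so deletion can proceed only in cells that have begun to express it. The strain label of the 12 samples reads C57BL/ followed by a number that runs from 7 to 18, a different one in each library, and no age is given in the labels used here.

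The table pools the replicates of each arm into 1 score, in 2 versions. It calls the arms test and control without a genotype, while the library titles call flox/+ Ctrl and flox/flox cKO, so that by name alone the control arm would be flox/+. The authors' list of METTL3-dependent peaks holds peaks with the higher score in the test arm, so flox/+ cells are taken to be the test arm and flox/flox cells the other one, named comparator arm below. This reading goes against the match of names, all directions rest on it, and they would turn with the other one. The sources used here do not state the scale of the score, so scores and differences are in score units. With 1 pooled value per arm there is no spread between replicates for any peak, and the read depth is unknown. Markers of the labelled cell type, and the level of Mettl3 itself, were not analysed here.

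Stop-free 3' UTR peaks scored higher in the test arm than in the comparator arm. The median first-version score was 2.06 in the test arm (quartiles 1.50 to 2.77); that of the comparator arm was 1.52 (0.86 to 2.19). Per peak, the median difference, test minus comparator, was 0.57 (quartiles 0.05 to 1.10). On the second version the medians were 3.39 and 2.42, with a median difference of 0.91 (0.41 to 1.40). The test arm was the higher one in 1791 of the 2336 peaks by the first version (76.7%) and in 2069 by the second (88.6%). Among all peaks of the table, the test arm was higher in 61.7% by first-version scores and in 70.0% by second-version scores. The median differences of all peaks were 0.25 and 0.49 in the same order. A shift toward the test arm was thus present across the table, and it was larger in stop-free 3' UTR peaks. Both versions had the test arm higher in 1704 peaks (72.9%), and both had the comparator arm higher in 175 (7.49%). Over all 32009 peaks those last shares were 54.5% and 22.5%. In these bulk libraries, fewer cells that carry a mark and less mark per cell cannot be told apart.

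The METTL3-dependent list held 942 of the stop-free 3' UTR peaks (40.3%, exact Clopper-Pearson 95% interval 38.3% to 42.3%), against a background of 28.1% over all peaks. A peak is in the list when either score version has an unadjusted p under 0.1 and either has the higher test arm, a rule that matched the list with 0 exceptions. With the same thresholds and the comparator arm higher there were 83 stop-free 3' UTR peaks (3.55%, 2.84% to 4.39%), against 10.7% of all peaks. As p and direction may come from different versions, a peak can meet both rules: 64 of the 83 were also listed and 19 were not. With p and direction from the same version, on either of them, 928 stop-free 3' UTR peaks had the test arm higher (39.7%, against 26.7% of all peaks) and 35 the comparator arm (1.50%, against 8.59%). The stricter demand of a p under 0.1 and a higher test arm on both versions was met by 370 (15.8%, against 8.73% of all peaks), and its opposite by 3 (0.128%, against 1.37%). The intervals allow for counting error alone and are too narrow where peaks share a transcript. No test was made on these shares, because the members were chosen from the same libraries and peaks are not replicates.

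Membership of a single peak in the list is not a call that passed correction. No stop-free 3' UTR peak passed an adjusted p of 0.05 after Benjamini-Hochberg adjustment of the authors' p over the whole table. The smallest adjusted values were 0.353 by the first version and 0.219 by the second. Without adjustment, 316 of the 2327 stop-free peaks with a first-version p were under 0.05, of which 305 had the test arm higher (8.14% of all peaks did) and 11 the higher comparator arm (3.34% of all peaks). On the second version 495 of 2336 were, 489 of them with the test arm higher (12.9% of all peaks) and 6 with the comparator arm higher (2.01% of all peaks).

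The closest set for comparison was the 2248 3' UTR peaks within 50 nt of the motif on transcripts that did have a stop-codon peak. Of these, 912 were listed (40.6%, 38.5% to 42.6%). The stop-free share was thus -0.24 percentage points apart, with a 95% Newcombe interval of -3.08 to 2.60 that covers counting error only. A difference between these sets was not detectable beyond that interval, and no test was made. The median difference between arms was 0.63 by the first version and 0.87 by the second in accompanied peaks, against 0.57 and 0.91 in stop-free ones, so the order of the sets turned with the score version.

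The level of the score did not order the sets the same way on both versions either. On the first version the test-arm median was 2.06 in stop-free and 2.25 in accompanied 3' UTR peaks, and on the second it was 3.39 and 3.27. The comparator arm behaved alike, with 1.52 and 1.66 on the first version and 2.42 and 2.30 on the second. Which of the sets carries the stronger signal therefore depends on the authors' score version.

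Other sets placed these values. Stop-codon peaks within 50 nt of the motif had a listed share of 48.3% of 5843, which put the stop-free 3' UTR peaks -7.99 percentage points apart (-10.3 to -5.61). Their median difference was 0.65 by the first version and 0.90 by the second, against 0.57 and 0.91 in stop-free 3' UTR peaks. Coding-sequence peaks near the motif on transcripts that also lacked a stop-codon peak were listed in 28.9% of 5596, and had median differences of 0.24 and 0.55. Stop-free 3' UTR peaks were 11.4 points above them (9.08 to 13.7). Stop-free 3' UTR peaks beyond 50 nt from the motif were listed in 22.5% of 444.

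**Figure D1:**
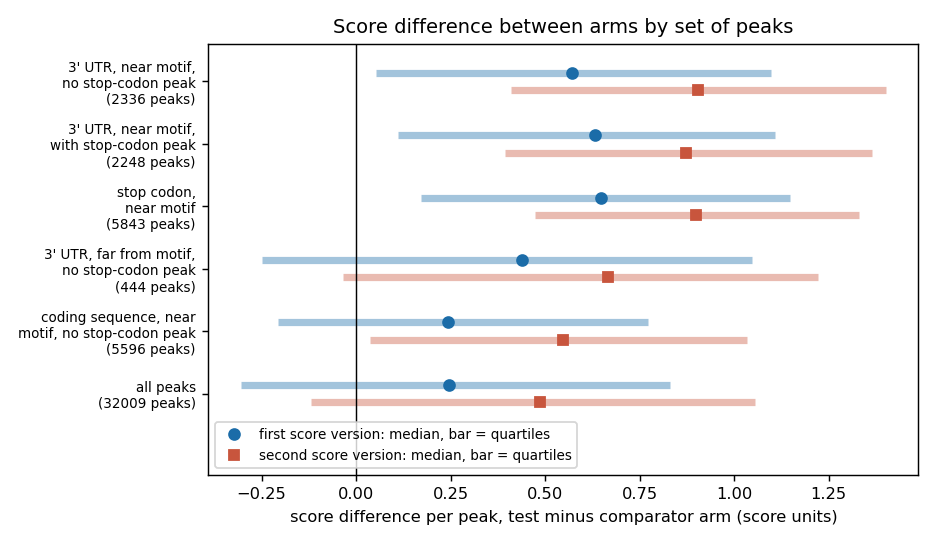
Median score difference per peak, test minus comparator arm, in score units (x axis), with bars from the lower to the upper quartile, for 6 sets of peaks (y axis) and both score versions. Stop-free 3' UTR peaks lie at 0.57 and 0.91, with their quartile bars wholly above 0, while the bars of all peaks cross 0 on both versions. The bars of accompanied 3' UTR peaks (lower quartiles 0.11 and 0.40) and of stop-codon peaks near the motif (0.17 and 0.47) also lie wholly above 0.

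For each arm the table lists a count from 0 to 3, taken here to count the replicates with a call. A call in at least 2 test replicates was recorded for 629 stop-free 3' UTR peaks (26.9%, 25.1% to 28.8%) and in at least 2 comparator replicates for 344 (14.7%, 13.3% to 16.2%). Over all peaks these shares were 29.4% and 24.1%, so the calls in the comparator arm were lower relative to all peaks than those in the test arm. More test than comparator calls were seen for 1171 peaks (50.1%), fewer for 486 (20.8%) and equal numbers for 679 (29.1%). Over all peaks these shares were 38.0%, 29.3% and 32.7%.

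The extremes of the call pattern were uneven between arms, as they also were over all peaks. A call in every test replicate with none in the comparator arm was recorded for 58 stop-free 3' UTR peaks (2.48%, 1.89% to 3.20%). That interval holds the background of 1.95% of all peaks. The share was 2.98% in accompanied 3' UTR peaks and 4.66% in stop-codon peaks near the motif. The converse was recorded for 5 stop-free 3' UTR peaks (0.214%, against 0.918% of all peaks). It was recorded for 0.089% and 0.291% of those other sets. Every replicate of both arms called 125 peaks (5.35%, against 9.58% of all peaks). No replicate of either arm called 434 (18.6%, against 15.9% of all peaks), of which 154 were nevertheless in the list, because the list uses the scores and not the calls. The most frequent pattern was 1 test call and no comparator call, in 718 peaks. The share of all peaks with this pattern was not computed.

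**Figure D2:**
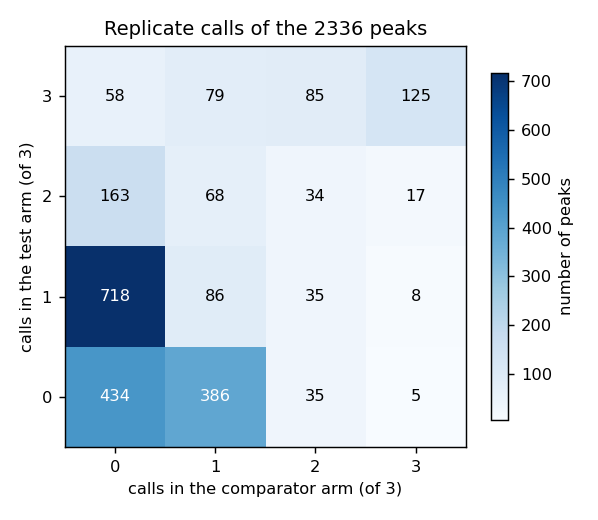
Number of stop-free 3' UTR peaks for each combination of calls in the test arm (y axis, 0 to 3) and in the comparator arm (x axis, 0 to 3); darker cells hold more peaks. The corner of 3 test and 0 comparator calls holds 58 peaks and the opposite corner 5. These are 2.48% and 0.214% of the stop-free 3' UTR peaks, against 1.95% and 0.918% of all peaks.

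Listed share went with replicate calls. It was 29.2% among the 860 peaks with no test call, 37.9% among the 847 with 1, 54.6% among the 282 with 2 and 62.2% among the 347 with 3 (56.9% to 67.4%). The median first-version difference did not follow that order: it was 0.23, 0.82, 0.73 and 0.66 in the same classes. On the second version the median difference was 0.69, 1.07, 1.10 and 0.89. Peaks called in every test replicate thus had the highest listed share of the 4 classes. The median difference, however, was highest in those called in 1 on the first version and in those called in 2 on the second. The calls and the scores come from the same libraries, so this is a description of the table.

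The rule fixed a limit of 50 nt, but left the distance inside it free. The median distance was 11 nt (quartiles 4 to 23), 723 peaks (30.9%) lay within 5 nt and 80 at 0 nt. The motif is not spelled out in the table, so whether it is the METTL3 motif is not known here. Negative distances were recorded for 1188 peaks and positive ones for 1068. The listed share was 39.1% in the former (36.3% to 41.9%) and 40.4% in the latter (37.5% to 43.5%), with overlapping intervals.

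The listed share and the share of replicated calls were higher near the motif. Within 5 nt of the motif 338 of 723 stop-free 3' UTR peaks were listed (46.7%, 43.1% to 50.5%). The share was 42.4% at 6 to 10 nt, 40.3% at 11 to 20 nt and 37.8% at 21 to 30 nt. It was 28.6% at 31 to 40 nt (59 of 206) and 25.3% at 41 to 50 nt (37 of 146, 18.5% to 33.2%). At 0 nt 46 of 80 were listed (57.5%, 45.9% to 68.5%). The median first-version difference was 0.60, 0.60, 0.65, 0.56, 0.33 and 0.40 across the 6 distance classes, with the lower values in the outer 2. In accompanied 3' UTR peaks the listed share went from 47.7% within 5 nt to 33.3% at 41 to 50 nt. Their median first-version difference was 0.64, 0.58, 0.64, 0.61, 0.66 and 0.57 across the same classes, without the drop at 31 to 40 nt.

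Replicated calls were fewer with distance, mainly in the test arm. At least 2 test replicates called 38.0% of peaks within 5 nt and 9.59% at 41 to 50 nt, whereas the comparator arm went from 19.8% to 8.22%. At 41 to 50 nt the intervals of both arms overlapped. The median test-arm score went from 2.19 to 1.82 and the comparator-arm score from 1.69 to 1.36, on the first version. Score strength and distance thus moved together, and their separate parts in the listed share were not tested.

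**Figure D3:**
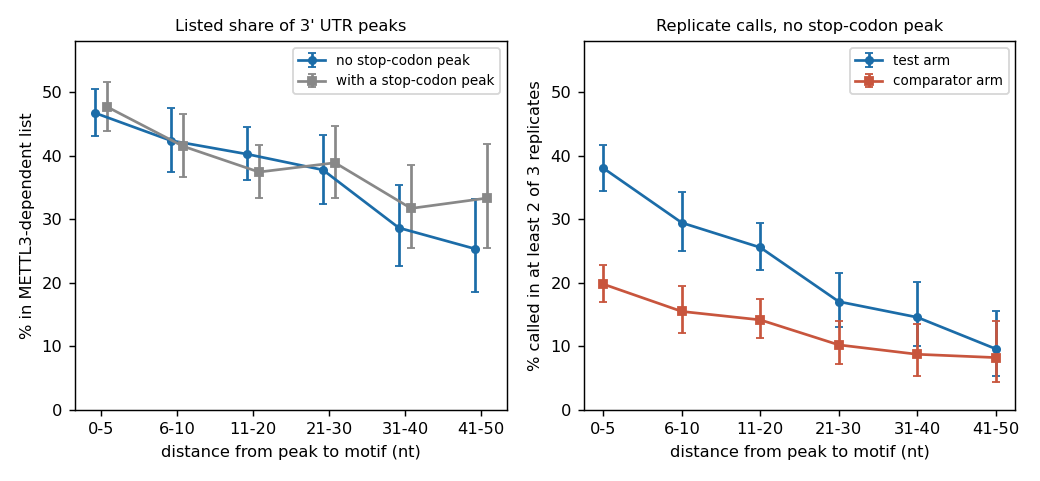
Left, share of 3' UTR peaks in the METTL3-dependent list (y axis, %) by distance to the motif (x axis, nt), for stop-free peaks and for those with a stop-codon peak; right, share of stop-free peaks called in at least 2 of 3 replicates of each arm. Error bars are exact 95% intervals; the listed share of stop-free peaks goes from 46.7% to 25.3% and the test-arm call share from 38.0% to 9.59%.

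The peaks next to the limit were few. The 73 stop-free 3' UTR peaks at 46 to 50 nt had median first-version scores of 1.91 and 1.36 in the test and comparator arms and 15 were listed. The 59 at 51 to 55 nt, which the rule left out, had 1.82 and 1.11 and 19 were listed. The median scores of both arms were thus lower just outside the limit than just inside it. On the second version they were 3.10 and 2.15 inside and 2.67 and 1.57 outside, test arm first. The listed share was instead higher outside, 32.2% (20.6% to 45.6%) against 20.5% (12.0% to 31.6%), with overlapping intervals.

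The listed share was higher in stronger peaks. By the mean first-version score of both arms, the weakest of 3 equal groups (up to 1.41) had 30.7% listed, the middle one 42.9% and the strongest (from 2.15 up to 5.89) 47.4%. The median difference was 0.61, 0.50 and 0.59 in these groups on the first version. On the second version it was 1.00, 0.94 and 0.83. Calls in at least 2 test replicates went from 2.95% to 55.2%, so the larger listed share of strong peaks went with better replication and not with a larger median difference.

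Along the transcript, stop-free 3' UTR peaks lay at a median of 2431 nt from the transcript start (quartiles 1681 to 3494), against 2972 nt for accompanied ones. The listed share was 46.7% of the 120 peaks in the first 1000 nt, 36.0% of the 689 between 2000 and 3000 nt (32.4% to 39.7%) and 43.5% of the 131 beyond 6000 nt, with no single direction. The median first-version difference was 0.34 in the first 1000 nt (0.24 to 0.44, binomial interval of the median) and 0.75 between 4000 and 6000 nt (0.62 to 0.86). The table gives no length of the 3' UTR or of the transcript, so distance from the stop codon was not computed.

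Most transcripts carried 1 such peak. There were 1189 with 1, 292 with 2, 101 with 3 and 54 with at least 4, up to 9. At least 1 listed stop-free 3' UTR peak was present on 764 transcripts (46.7%) and at least 2 on 135. The listed share was 41.5% for lone peaks, 40.6% on transcripts with 2, 40.3% on those with 3, and 48 of 120 peaks on transcripts with 4. On the few transcripts with more it was uneven: 14 of 65 peaks were listed where there were 5 (21.5%, 12.3% to 33.5%), 10 of 36 where there were 6, 12 of 21 where there were 7 and 5 of 18 where there were 9. Of the transcripts with 2, both peaks were listed on 70, 1 on 97 and none on 125.

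Neighbouring peaks on a transcript had like values when they were close. Over 700 pairs of neighbours the median spacing was 220.5 nt (quartiles 104 to 441), and 168 pairs (24.0%) were under 100 nt apart. In those close pairs the first-version differences of both peaks lay a median of 0.16 score units apart, and Spearman's rho between them was 0.88. From 100 to under 300 nt these values were 0.34 and 0.67 (260 pairs), from 300 to under 1000 nt 0.52 and 0.46 (203 pairs), and at 1000 nt or more 0.58 and 0.27 (69 pairs). Both or neither were listed in 80.4% of the close pairs and in 56.5% of the widest. The pairs share a transcript, the same libraries and, when close, overlapping fragments, so these correlations describe the table and carry no p. Within transcripts the standard deviation of the difference was 0.56, against 0.82 over all peaks of those transcripts.

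From the first to the last such peak of a transcript the score was lower but the difference was not. On the 447 transcripts with at least 2, the median first-version test score was 2.29 for the most 5' peak and 2.12 for the most 3' one, and the comparator scores were 1.80 and 1.52. The 5' peak had the higher test score on 261 transcripts (58.4%) and the higher difference on 217 (48.5%). The listed shares were 41.2% for the 5' and 39.8% for the 3' peak.

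Scores along 3 of the transcripts with the most stop-free 3' UTR peaks are given as examples: both with 9 peaks, and the first by position of the 3 with 7. Transcript identifiers are given as in the table, which does not pair them with gene names, and positions are on the build taken as mouse mm9. On uc008zgm.1 (chromosome 5, 119213047 to 119215301) 9 peaks spanned 2243 nt of the transcript. In the authors' deposited table its first peak scored 3.09 in the test and 3.52 in the comparator arm, and its last -0.08 and -0.30. The test arm was the higher one at 6 of the 9 on the first version and at 9 on the second, and 4 were listed.

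On uc007dbf.1 (chromosome 1, 157123050 to 157127751) 7 peaks lay in 2 clusters. The authors' deposited table gave its first peak scores of 4.14 and 3.54 in the test and comparator arms, with 2 calls in each arm, and second-version scores of 4.79 and 4.70. Farther 3', the peak at 157124012 had scores of 1.66 and -0.72 in the authors' deposited table, and 3 peaks there were listed. On uc009inq.1 (chromosome 7, 107985173 to 107988338) 9 peaks had differences from -0.44 to 1.10, of which 1 was listed, and none was called in 2 replicates of an arm.

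**Figure D4:**
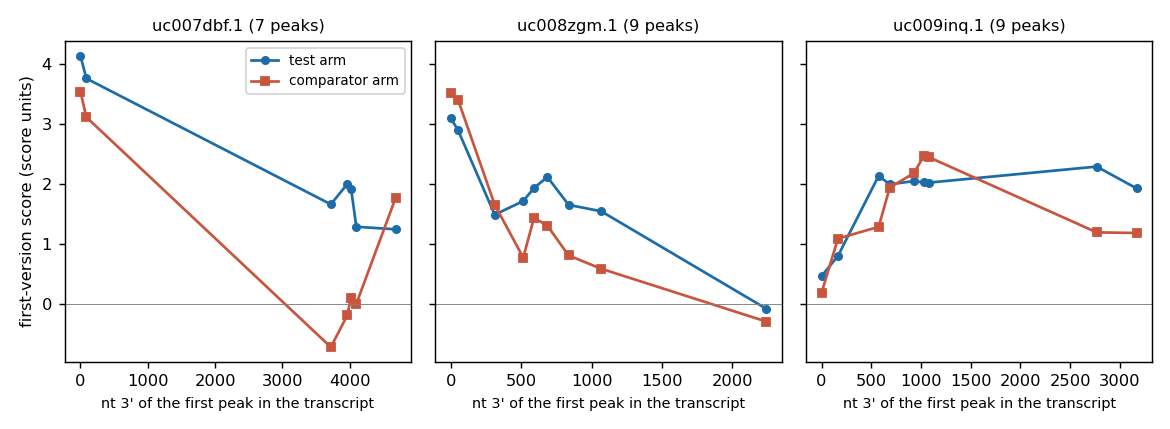
First-version score (y axis, score units) of each stop-free 3' UTR peak in the test and comparator arms along both transcripts with 9 such peaks and 1 of the 3 with 7; the x axis is the distance in nt from the first of them. On uc007dbf.1 the arms differ by 0.60 at the first peak and by 2.38 at the third, and on uc009inq.1 they cross.

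Other parts of the same transcripts were set beside the stop-free 3' UTR peaks. Peaks of the other parts were taken at any distance from the motif, whereas the stop-free 3' UTR peaks lay within 50 nt. The sets are unlike in this respect, and its part in the contrasts below was not tested. Of the 1636 transcripts, 844 (51.6%) had peaks only in the 3' UTR, and on 600 of these the stop-free peak was the only peak in the table. A peak at the transcript start was present on 488 (29.8%), one in the coding sequence on 387 (23.7%) and one in the 5' UTR on 74 (4.52%). Stop-free 3' UTR peaks on transcripts with peaks in other parts were listed in 43.7% of 1223 (40.9% to 46.6%), and those on transcripts with peaks only in the 3' UTR in 36.6% of 1113 (33.7% to 39.5%). At least 2 test replicates called 33.0% of the former and 20.2% of the latter, and the median test scores were 2.19 and 1.92. These sets thus differed in replication and score as well, and their parts in the listed share were not tested.

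On the 488 transcripts with a start peak, at any distance from the motif, the 3' UTR and the transcript start differed in direction by their medians. The transcript start is where the cap and its neighbouring methylated base lie. The median of the 3' UTR peaks' differences was 0.69 and that of the start peaks' -0.47 on the first version, and 1.03 and -0.19 on the second. The 3' UTR had the higher difference on 442 transcripts (90.6%, 87.6% to 93.0%) on the first version and on 429 (87.9%) on the second. Of the 506 start peaks 28 were listed (5.53%) and 115 met the opposite rule, which may overlap the list (22.7%), while 347 of the 761 stop-free 3' UTR peaks on these transcripts were listed (45.6%).

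Score levels of the parts were compared in each arm on the first version only, so whether the second version gives the same picture was not tested. In the test arm the medians were 2.20 in the 3' UTR and 2.30 at the start, and the 3' UTR was higher on 254 of 488 transcripts (52.0%). In the comparator arm they were 1.53 and 2.73, and the 3' UTR was higher on 92 (18.9%). The same held to a smaller extent for the 387 transcripts with a coding-sequence peak, where the 3' UTR had the higher difference on 254 (65.6%, 60.7% to 70.4%), with medians of 0.51 and 0.14 (0.91 and 0.43 on the second version). On the 74 with a 5' UTR peak it did so on 58 (78.4%, 67.3% to 87.1%), with medians of 0.53 and -0.12. On the second version the 5' UTR median was above 0, at 0.24, and that of the stop-free peaks was 0.93.

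**Figure D5:**
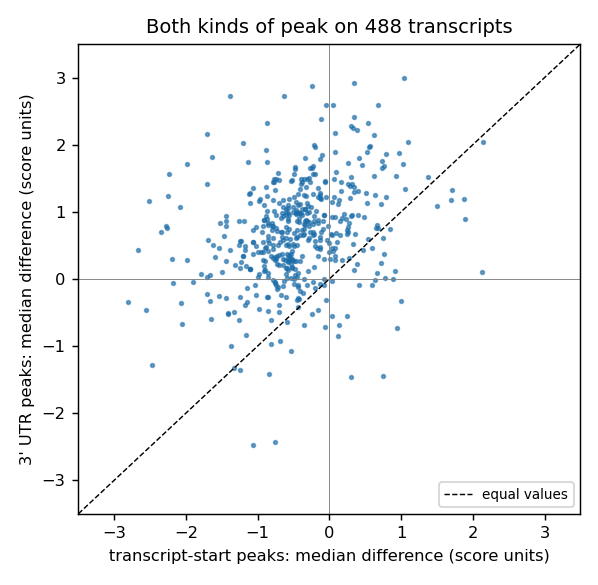
Each point is 1 of 488 transcripts, with the median first-version difference, test minus comparator arm, of its transcript-start peaks on the x axis and of its stop-free 3' UTR peaks on the y axis, both in score units. On 442 transcripts the point lies above the dashed line of equal values. Transcript-start peaks are at any distance from the motif.

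Calls in every replicate of both arms were required of the next peaks. Among the 125 stop-free 3' UTR peaks called in every replicate, the 5 with the highest mean score lay within 4 nt of the motif. Without that demand the highest mean score was 5.89, at a peak with 0 test calls and 1 comparator call. In the authors' deposited table the strongest of the 125, on chromosome 7 at position 125278354, scored 5.77 in the test and 5.86 in the comparator arm (unadjusted p = 0.758). The next, on chromosome 8 at position 75007392, had 5.90 and 5.56 in the authors' deposited table (unadjusted p = 0.410). The third, on chromosome 11 at position 119347730 and at 0 nt from the motif, had 6.10 and 5.32 there and was listed, with an unadjusted p of 0.0953 in the authors' deposited table. The remaining ones, on chromosome 5 at 111086881 and chromosome 15 at 3935975, had differences of 0.77 and 1.02 in the authors' deposited table, and only the latter was listed.

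Peaks with large differences on the first version are given next. Among 165 listed stop-free 3' UTR peaks with a p under 0.1 on both versions and at least 2 test calls, uc009tbr.1 had the largest first-version difference in the authors' deposited table, on chromosome X at position 45317844, 4 nt from the motif. Its scores in the authors' deposited table were 4.40 in the test and 0.67 in the comparator arm (unadjusted p = 0.0295, adjusted over all peaks 0.402), and 4.68 and 1.33 on the second version. For uc009nbt.2, on chromosome 8 at position 107776819, the authors' deposited table gave 2.20 and -1 (unadjusted p = 0.0103), and 3.40 and -0.28 on the second version. The next 3, on chromosome 4 at 107548235, chromosome 14 at 67604230 and chromosome 9 at 108002090, had first-version differences of 2.93, 2.72 and 2.64 in the authors' deposited table. On the second version the order of these 5 was another, with uc009nbt.2 at 3.68 and uc009tbr.1 at 3.35 in the authors' deposited table. All 5 had 0 comparator calls, while at least 2 test calls were demanded of them by the choice.

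The share of all peaks that met the demands on p and calls was not computed in either direction. Without the demand on calls, 8.73% of all peaks had p under 0.1 and the higher test arm on both versions. With the comparator arm higher on both, 1.37% of all peaks did. In the opposite direction 1 stop-free 3' UTR peak met the same demands, with the calls in the comparator arm. It was on uc008tsn.1, on chromosome 4 at position 94612625 and -9 nt from the motif, with scores of 1.18 in the test and 2.61 in the comparator arm in the authors' deposited table (unadjusted p = 0.0897). The second version gave 1.12 and 2.86 in the authors' deposited table (unadjusted p = 0.0460), and the peak had 0 test and 2 comparator calls.

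Of the 80 stop-free 3' UTR peaks at 0 nt from the motif, 5 were called in every test replicate and in no comparator replicate. The matching share over all peaks at 0 nt was not computed. The 3 of these 5 with the largest differences were on chromosome 9 at 64765765, chromosome 1 at 132587369 and chromosome 17 at 36254134. Their first-version scores in the authors' deposited table were 2.53 and 0.35, 4.13 and 2.12, and 2.96 and 1.74, test arm first. The peak on chromosome 1 had an unadjusted p of 0.189 in the authors' deposited table and was not listed, although its calls were 3 against 0. Calls and scores thus did not always place a peak on the same side of the list.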

How the data were processed

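The 12 m6A-seq libraries came from mouse B cells activated with LPS. Peak scores and the unadjusted p-values of their differences were deposited by the authors, with replicates pooled into 1 score per arm. Tools named per the submitters' processing notes are DESeq2, SAMtools 1.3.1, HTSeq, STAR and cutadapt, and the builds are mm9 and mm10. Which step each served, the peak caller and the score formula were not given in the sources used here. Positions of 164 peaks, 18 of them stop-free 3' UTR peaks, ran past the ends of GRCm38 chromosomes, so they are taken as mm9, and no sequence was drawn from the GRCm38 reference. None of the 14219 identifiers matched a name table (0 matches).

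The regions, compared sets and rules were chosen with earlier results of these data known. The labels do not tie replicates to separate mice, so the deposited p-values could reflect technical spread alone. Named peaks were, among stop-free 3' UTR peaks: the 5 highest mean scores called in every replicate; up to 5 largest and 3 most negative differences with p under 0.1 on both versions and at least 2 calls in the higher arm; the 3 transcripts with most; and up to 3 at 0 nt with 3 test and 0 comparator calls. Transcript identifiers are printed for few of them, since they have no gene name. Shares have exact Clopper-Pearson 95% intervals, differences of shares Newcombe intervals and medians exact binomial intervals. The functions were tested on simulated data. Python 3.11.15, numpy 2.4.6, pandas 2.3.3, scipy 1.17.1, statsmodels 0.14.6 and matplotlib 3.10.9 were used.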

Additional observations from a re-analysis of the deposited data

How the results depend on the processing

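The member count, 3 shares and 2 medians were recomputed 54 times; both medians stayed above 0, and 36 recomputations gave values within 1.5 times (counts) or inside the 95% interval (shares and medians) of the reported value. The number of stop-free 3' UTR peaks was 3455, with 40.6% listed, when only stop-codon peaks called in at least 2 replicates of an arm counted. The split into stop-free and accompanied peaks thus depends in part on stop-codon peaks without such calls. The number was 712 with calls in at least 2 replicates of either arm and 891 with a mean score above the median of all peaks. The listed share was then 54.6% and 46.8%, the share with at least 2 test calls 88.3% (raised by construction) and 52.9%, the median first-version difference 0.63 with those calls and the median second-version difference 0.83 with those scores. A motif limit of 25 nt gave 43.2% listed and 30.6% with at least 2 test calls, and 100 nt gave 24.9% of the latter. The strongest peak of each transcript gave 34.3%. The listed share was 27.0% with p under 0.05, 22.1% on the first score version alone and 33.5% on the second alone. The opposite share was 2.01%, 1.11% and 0.514% in the same order. The shares of all peaks under these changed rules were not computed. The 28.1% and 10.7% of all peaks belong to the original rule and are no background for them. Leaving out 84 peaks within 200 nt of another transcript's stop-codon peak, an alternative chosen after seeing the data, gave 40.01% listed. No paired analysis was possible because the scores are pooled per arm, and for the same reason no replicate could be left out. Depth per library is unknown, so it sets no precision on a score.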

Other observations

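Stop-free 3' UTR peaks were found on 20 of the 22 chromosomes that hold a peak in the table; those without were Y and the mitochondrial one. They made up from 4.88 (chromosome 12) to 8.95 (chromosome 8) of every 100 peaks of a chromosome. On the X chromosome 17 of 55 were listed (30.9%, 19.1% to 44.8%), and of all X peaks 23.0% were. The highest listed share was on chromosome 18, 29 of 55 (52.7%, 38.8% to 66.3%, against 29.0% of all its peaks), and the lowest on chromosome 14, 22 of 79 (27.8%, 18.4% to 39.1%, against 25.4%).

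A peak of another transcript lay within 200 nt of 433 stop-free 3' UTR peaks, and for 84 of them it was a stop-codon peak. Among those 84, 41 were listed (48.8%, 37.7% to 59.96%). The table gives no strand, so reads from overlapping genes or from other isoforms of the same gene were not told apart here.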
